A study of Homo sapiens with 4 samples.

Results

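CC chemokines and other genes that draw leukocytes to a tissue were examined in the glioma line U87MG, an established line of human brain tumour cells, transfected with a plasmid that overexpresses miR-490. The genes were CCL2, CCL5, CCL20, ICAM1, VCAM1, CSF1 and TNFAIP2. They were picked with their differences between the vectors already known, so those differences are given as a description and no test of them is offered. Every probe set whose platform annotation gives exactly 1 gene symbol, that of a member, was kept. This gave 18 probe sets for the 7 genes, of 49293 probe sets and 18132 genes on the arrays, and no set shared between a member and another gene symbol was found.

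A group of 2 arrays held RNA from U87MG cells carrying the empty control vector PCDNA3.1 (+), and a group of 2 held RNA from U87MG cells carrying the miR-490 vector PC-490. Both groups had been transfected, neither has a label for any further agent or mutation, and RNA was taken 48 h later. The share of cells that took up the plasmid is not given. The labels do not say whether arrays of a group came from separate cultures, so the spread between them may be technical. Values are log2 expression from RMA, which corrects background, equalises the arrays and joins a set's probes into 1 value. The array medians were 5.15 to 5.17.

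NF-kB is a transcription factor held in the cytoplasm by inhibitor proteins until a signal such as TNF or IL-1 has them destroyed. In the nucleus it binds short kB sites near many inflammatory genes. Chemokines of the CC family are small secreted proteins that attract monocytes, T cells and dendritic cells through G-protein-coupled receptors, and adhesion molecules on the surface of activated cells then hold the arriving leukocytes through integrins. Glioma cells are known to secrete CCL2 and CSF1, which act on monocytes and microglia.

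The mature sequences of the overexpressed microRNA are shown because they are the agent that separates the groups. They come from RefSeq (GRCh38.p14), read 5′ to 3′, with the seed (bases 2 to 8, which pair with target messages) in capitals. The 5p arm lies at chr7:136903205-136903224 and the 3p arm at chr7:136903242-136903263, both on the plus strand. The arrays gave no value for the mature microRNA here, so its overexpression was not checked.
hsa-miR-490-5p: cCAUGGAUcuccaggugggu
hsa-miR-490-3p: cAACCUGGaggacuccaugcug

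Upstream sequences of members with a kB-type match are shown because NF-kB acts through such sites. Of the 7 genes, 4 had an entry in the RefSeq promoter table used (GRCh38.p14): VCAM1, CCL20, TNFAIP2 and ICAM1. CCL2, CCL5 and CSF1 had no entry there, so they were not searched for kB sites. Each entry spans 250 bases before to 50 after the gene start. Letters were searched on both strands for the classical 10-base kB consensus, for GGGNTTNCC, which overlaps that consensus, and for GGANTTTCC. Among 35116 promoters of the same length, 11.3% held the consensus, 5.29% held GGGNTTNCC and 1.64% held GGANTTTCC. Capitals mark the matched bases, and each sequence is on the plus strand of the genome, which is the strand of its gene. VCAM1 is at chr1:100719645-100719709, CCL20 at chr2:227813743-227813792, TNFAIP2 at chr14:103123344-103123392 and ICAM1 at chr19:10270914-10270962.
VCAM1: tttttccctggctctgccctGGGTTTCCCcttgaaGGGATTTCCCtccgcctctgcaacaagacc
CCL20: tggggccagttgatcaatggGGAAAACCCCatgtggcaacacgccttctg
TNFAIP2: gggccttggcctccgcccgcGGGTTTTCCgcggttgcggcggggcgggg
ICAM1: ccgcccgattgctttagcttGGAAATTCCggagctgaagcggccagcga

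In VCAM1 the matches began 77 and 62 bases before the gene start, and the second matched the consensus on both strands. In CCL20 a consensus match on the minus strand began 79 bases before the start, overlapped by a GGGNTTNCC match. TNFAIP2 had GGGNTTNCC at 97 bases and ICAM1 had GGANTTTCC on the minus strand at 186 bases. VCAM1, CCL20 and ICAM1 also had the letters TATAAA on the plus strand, 29, 29 and 30 bases before the start, and VCAM1 had them on the minus strand as well. They were found in 11.5% of promoters. The AP-1 letters TGANTCA, found in 7.71% of promoters, had no match in these 4 windows. A match describes letters and does not show binding.

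The 7 genes did not all differ in the same direction. VCAM1, CCL5 and CCL20 had lower means with miR-490 in each of their probe sets, by log2 differences of -0.08 to -0.435. The single set of CCL2 was also lower, at -0.14. ICAM1 and TNFAIP2 gave differences of both signs, depending on the probe set. CSF1 had slightly higher means in all 3 of its sets, and each of these turned lower when 1 array was left out. In all, 11 of the 18 probe sets had lower and 7 higher means with miR-490, against 47.8% lower and 49.7% higher over all probe sets. In RNA from whole cultures, fewer cells with a transcript and less of it per cell cannot be told apart.

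Groups were counted as apart when both miR-490 arrays lay on the same side of both control arrays. Of the 18 member sets 7 (38.9%) had both miR-490 arrays below both controls, where 15.6% of all 49293 probe sets did. In the other direction 1 member set (5.56%) had both miR-490 arrays above both controls, where again 15.6% of all did, and in 10 sets the groups overlapped. Because the genes were chosen on this contrast, nothing is read from these counts. By limma with Benjamini-Hochberg adjustment over all probe sets, 0 of 49293 passed an adjusted p of 0.05 in the lower direction (0%) and 0 in the higher (0%), so 0 of the 18 member sets passed. The smallest adjusted p over the table was 0.90. An unadjusted limma p under 0.05 was found in 2537 of 49293 sets, near the share this level gives where nothing differs. With 2 arrays against 2, an exact two-sided permutation test of any 1 value cannot go below p = 0.333.

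**Figure D1:**
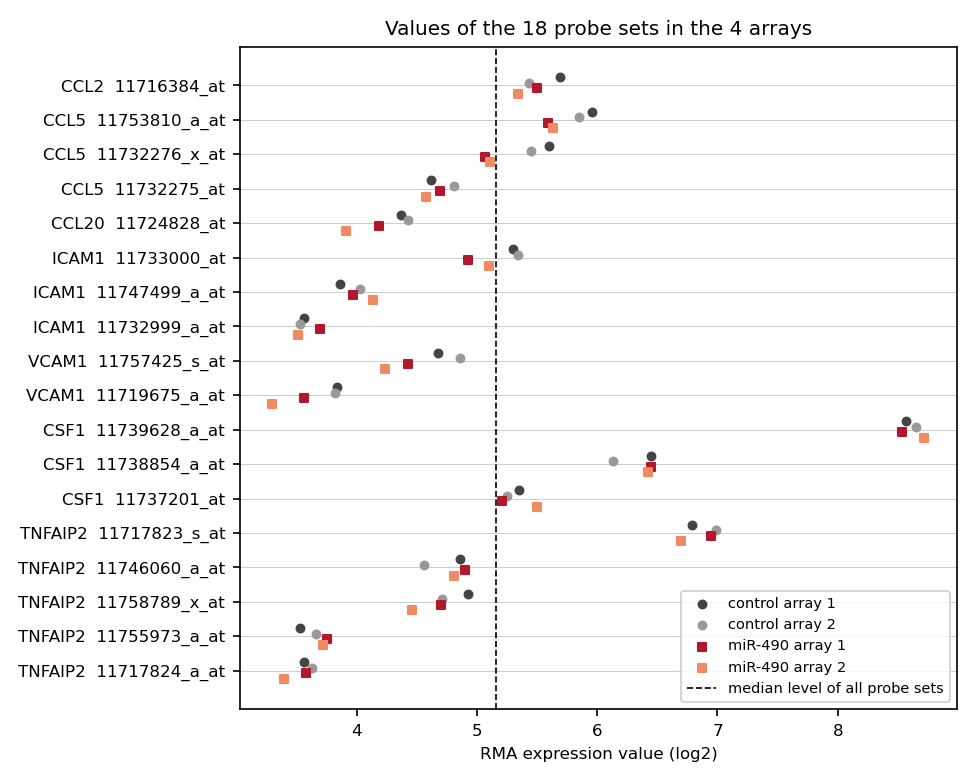
Log2 RMA value (horizontal axis) of each of the 18 probe sets in the 4 arrays, control arrays as circles and miR-490 arrays as squares, with the median level of all probe sets (5.16) dashed; points are staggered vertically only to keep them apart. The miR-490 squares of both VCAM1 sets, CCL20, the upper CCL5 sets, ICAM1 11733000_at and TNFAIP2 11758789_x_at lie left of both control circles. Those of TNFAIP2 11755973_a_at lie right of both. In the other sets, among them all of CSF1, the groups overlap.

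Among the chemokines, CCL5 (RANTES), which attracts T cells and monocytes, was read by 3 probe sets. Set 11753810_a_at had 5.96 and 5.85 in the control arrays and 5.59 and 5.63 in the miR-490 arrays. The groups did not overlap, and the means were 5.91 ± 0.078 and 5.61 ± 0.028 (log2, SD, n = 2), a difference of -0.295 with a limma standard error (SE) of 0.074, or 0.815 of the control level. Set 11732276_x_at was also apart, at 5.60 and 5.45 against 5.07 and 5.11, a difference of -0.435 (SE 0.081). The miR-490 arrays of both sets lay within 0.04 of each other.

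The third CCL5 set, 11732275_at, differed from these. It read 4.62 and 4.81 in controls and 4.69 and 4.58 with miR-490, so the groups overlapped and the difference was -0.08 (SE 0.096), or 0.015 without control array 2. It was designed on the same transcript record as 11732276_x_at, and the suffix x marks a set some of whose probes can match other sequences. So sets built on 1 CCL5 record gave log2 differences of -0.08 and -0.435.

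CCL20, which attracts CCR6-bearing dendritic cells and lymphocytes, had a single probe set, 11724828_at. It read 4.37 and 4.43 in the control arrays and 4.19 and 3.91 in the miR-490 arrays, with no overlap. The difference was -0.35 (SE 0.113), or 0.785 of the control level. Without miR-490 array 2 it was -0.21. The gap between the miR-490 arrays, 0.28, was nearly as large, and the set lay below the median level of all probe sets, where differences spread more widely (SD of all differences 0.141 below the median and 0.0937 above).

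CCL2 (MCP-1), the main attractant of monocytes, also had a single set, 11716384_at. Its values were 5.69 and 5.43 in controls and 5.50 and 5.34 with miR-490. The miR-490 array 1 lay between the control arrays, so the groups overlapped, and the difference of -0.14 (SE 0.118) was smaller than the gap of 0.26 between the controls. Without control array 1 the difference was -0.01.

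Of the adhesion molecules, VCAM1, which binds the integrin VLA-4 on monocytes and lymphocytes, gave the same picture in both of its sets. Set 11757425_s_at read 4.68 and 4.86 in controls against 4.43 and 4.24 with miR-490, means of 4.77 ± 0.127 and 4.34 ± 0.134 (log2, SD, n = 2) and a difference of -0.435 (SE 0.106). Set 11719675_a_at read 3.84 and 3.82 against 3.56 and 3.30, a difference of -0.40 (SE 0.106). In both sets the miR-490 arrays lay below both controls, at 0.740 and 0.758 of the control level. Both also lay below the median level, and of the 10 member sets there, these and CCL20 were below -0.335, the 1st percentile of differences among all sets under that median.

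ICAM1, the ligand of the leukocyte integrin LFA-1, was less uniform. Its brightest set, 11733000_at, read 5.30 and 5.34 in controls and 4.93 and 5.10 with miR-490, with no overlap and a difference of -0.305 (SE 0.085). The other sets were dimmer and had the opposite sign. Set 11747499_a_at read 3.86 and 4.03 against 3.97 and 4.14, a difference of 0.11 (SE 0.101), and 11732999_a_at read 3.56 and 3.53 against 3.70 and 3.51, a difference of 0.06 (SE 0.089). The groups overlapped in both dimmer sets. The first was at 0.025 without control array 1 or miR-490 array 2, and the second turned to -0.035 without miR-490 array 1. Which set is used thus decides the sign for ICAM1.

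**Figure D2:**
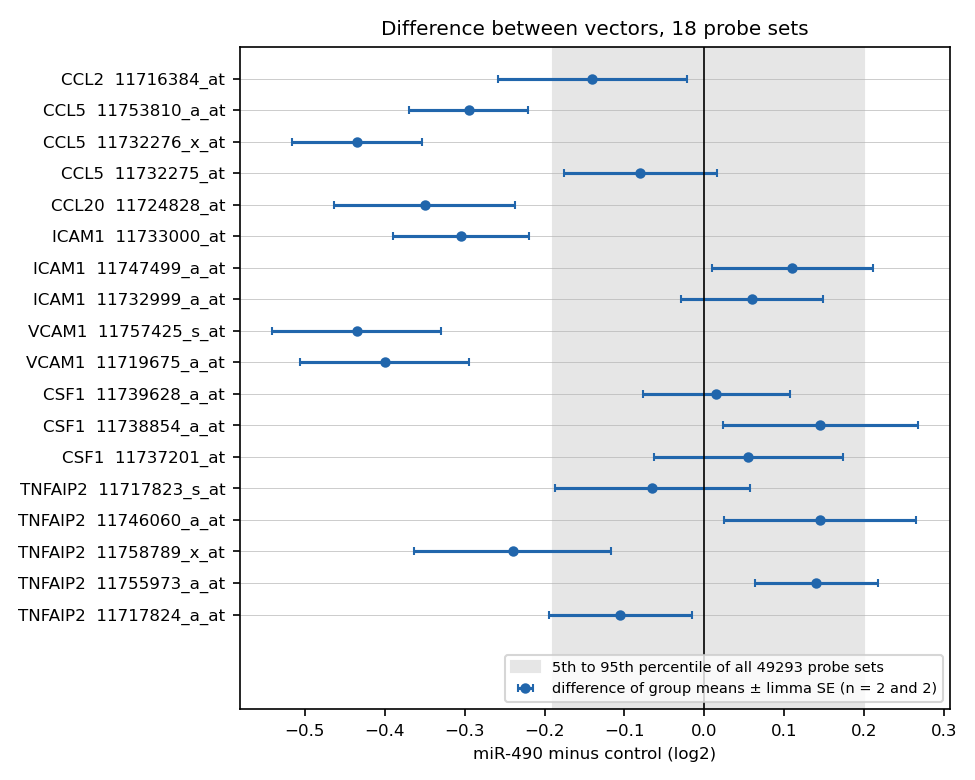
Difference of group means, miR-490 minus control (log2, horizontal axis), for the 18 probe sets, with the limma standard error as bars (n = 2 arrays per group); the grey band spans the 5th to 95th percentile of all probe sets (-0.19 to 0.20). The band is left on the low side by 7 sets, of VCAM1, CCL5, CCL20, ICAM1 and TNFAIP2, and on the high side by none.

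CSF1, the growth factor on which macrophages and microglia depend, was read by 3 sets. Set 11739628_a_at read 8.57 and 8.65 in controls and 8.53 and 8.72 with miR-490, a difference of 0.015 (SE 0.092). Set 11738854_a_at read 6.45 and 6.13 against 6.45 and 6.42, a difference of 0.145 (SE 0.122), and without control array 2 it was -0.015. Set 11737201_at read 5.35 and 5.25 against 5.21 and 5.50, a difference of 0.055 (SE 0.118). Without miR-490 array 2 these first and last sets were at -0.08 and -0.09, and without control array 1 the first was at -0.025. The groups overlapped in all 3 sets, all of which were above the median level, and each difference was smaller than the larger gap between arrays of a group.

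TNFAIP2, also called M-Sec, takes part in forming the thin membrane tubes that link cells, and TNF is known to induce it. Its brightest set, 11717823_s_at, read 6.79 and 6.99 in controls and 6.95 and 6.70 with miR-490, a difference of -0.065 (SE 0.122) with overlapping groups. Set 11758789_x_at had the miR-490 arrays lower, at 4.70 and 4.46 against 4.93 and 4.71, a difference of -0.24 (SE 0.123). There the nearest arrays of the groups were only 0.01 apart (4.71 and 4.70). Set 11755973_a_at had them higher, at 3.75 and 3.72 against 3.53 and 3.66, a difference of 0.14 (SE 0.077).

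The last TNFAIP2 sets overlapped between groups and also had opposite signs. Set 11746060_a_at read 4.86 and 4.56 against 4.90 and 4.81, a difference of 0.145 (SE 0.120). Set 11717824_a_at, built on the same record as 11758789_x_at, read 3.56 and 3.63 against 3.58 and 3.40, a difference of -0.105 (SE 0.089). TNFAIP2 thus had 3 sets lower and 2 higher, with 1 set apart in each direction. Single arrays decided several of these signs and sizes. The difference of 11717823_s_at was 0.035 without control array 2 and 0.06 without miR-490 array 2, and that of 11746060_a_at was -0.005 without control array 2. Set 11758789_x_at was at -0.13 without control array 1 and -0.12 without miR-490 array 2, and there 11717824_a_at was at -0.015. Set 11755973_a_at was at 0.075 without control array 1.

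Over the 18 sets the median log2 difference was -0.0925, where the median of all probe sets was 0. The quartiles of all differences were -0.065 and 0.07. Below the 1st percentile of all differences (-0.305) lay 4 member sets, both of VCAM1, the x set of CCL5 and CCL20, and ICAM1 11733000_at lay at it. The member median was -0.0425 without control array 2 and -0.193 without miR-490 array 1. With the brightest set of each gene alone it was -0.295.

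**Figure D3:**
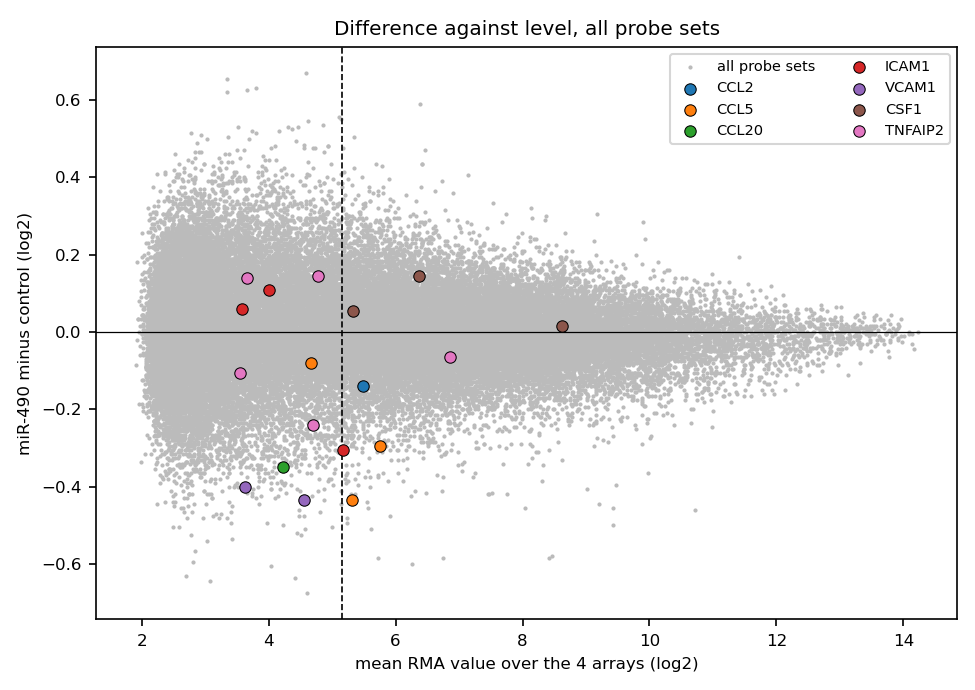
Difference of group means (log2, vertical axis) against the mean log2 RMA value over the 4 arrays (horizontal axis), all 49293 probe sets in grey and the member sets in colour, with the median level dashed. Differences spread more among dim sets, where 10 of the 18 member sets lie.

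The genes around the members were counted from lists drawn up by family or role, with the brightest probe set of each gene. Outside the 7 genes, 92 genes of 9 lists were measured. Of these 47 had lower and 41 higher means with miR-490, where 47.8% of all probe sets were lower and 49.7% higher. The median log2 difference of the 92 genes was -0.005, and 0 passed in either direction (limma, smallest adjusted p 0.90). Both miR-490 arrays lay below both controls in 14 and above them in 11, against 15.6% of all probe sets in each direction.

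Of 18 CC ligands measured outside the members, 6 had lower and 12 higher means, where 49.7% of all probe sets had higher means. The median was 0.035, and the groups were apart in 3 lower and 5 higher, against 15.6% of all probe sets in each direction. Only CCL22 and CCL26 lay above the median level, so these counts rest mostly on dim sets. CCL26, an eosinophil attractant, read 5.98 and 5.99 in controls and 5.85 and 5.88 with miR-490, a difference of -0.12 (SE 0.064). CCL22, which attracts regulatory T cells, read 6.71 and 6.86 against 6.85 and 6.85, a difference of 0.065 (SE 0.080), while its other set gave -0.06. Neither passed the limma threshold.

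Receptors for CC chemokines were split, with 6 of 12 lower and 6 higher and a median of -0.03. Above the median level were CCR1, a monocyte receptor for CCL5, with a difference of 0.01 (SE 0.068), and CCR10, a receptor for CCL27 and CCL28, with 0.125 (SE 0.073). The receptors of CCL2 and CCL20 were dim in the cells: CCR2 had a mean level of 3.07 and CCR6 of 3.26.

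Adhesion molecules other than ICAM1 and VCAM1 had 3 of 12 lower and 7 higher, with a median of 0.055. The junction proteins JAM2 and JAM3 were at 0.07 (SE 0.086) and -0.07 (SE 0.071), and ICAM5, a neuronal relative of ICAM1, at 0.16 (SE 0.102). Their other sets gave -0.04 and 0.12 for JAM2, -0.015 for JAM3 and 0.02 for ICAM5. The leukocyte integrin list had 6 of 8 lower and a median of -0.088, and only 2 of the 8 lay above the median level. ITGB1, the integrin chain present on nearly all cells, had -0.03 (SE 0.068) and ITGAX -0.005 (SE 0.066). Their other sets ran from -0.17 to -0.015 and from -0.055 to 0.18.

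Around CSF1, 4 of 6 other colony-stimulating factors and receptors had lower and 1 a higher mean. CSF3 (G-CSF), the growth factor of neutrophils, read 6.75 and 6.93 in controls and 6.53 and 6.41 with miR-490, with no overlap and a difference of -0.37 (SE 0.095). Its other sets also had lower means, at -0.195 and -0.265. CSF1R, the receptor of CSF1, had a difference of -0.015 (SE 0.104) and CSF3R, the receptor of CSF3, had 0.00 (SE 0.114). Their other sets gave -0.105 and -0.01 for CSF1R and -0.045 for CSF3R.

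The 4 relatives of TNFAIP2 in the SEC6 family of tethering proteins all had higher means, with a median of 0.08, where 49.7% of all probe sets did. Only 2 of them lay above the median level. EXOC3, the exocyst subunit, had 0.045 (SE 0.065) and EXOC3L2 0.115 (SE 0.112). The genes named for induction by TNF are grouped by name, though TNFAIP8 and its TNFAIP8-like relatives form a sequence family among them. Of the 7 other than TNFAIP2, 5 had lower means, and the median was -0.11. TNFAIP6 (TSG-6), which binds hyaluronan, read 8.35 and 8.42 against 8.18 and 8.06, a difference of -0.265 (SE 0.078). TNFAIP3 (A20), a feedback inhibitor of NF-kB, read 8.57 and 8.56 against 8.42 and 8.41, a difference of -0.15 (SE 0.064), while its other set gave 0.065. TNFAIP8 had -0.105 (SE 0.086), with -0.205 in its other set. TNFAIP8L1 had 0.095 (SE 0.083), with the opposite sign, -0.11, in its other set.

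Among NF-kB subunits, inhibitors and kinases, 9 of 12 had lower and 2 higher means, where 47.8% of all probe sets were lower. The median was -0.05. Some of the lower means were close to the controls and depended on the set. The subunit genes RELA and REL had -0.02 and -0.025. Their other sets had the opposite sign, at 0.11 and 0.285 for RELA and 0.175 for REL. NFKBIA, the inhibitor IkB-alpha and itself an NF-kB target, read 10.82 and 10.70 against 10.59 and 10.53, a difference of -0.20 (SE 0.077), and its other sets gave -0.175 and -0.16. The subunit gene NFKB1 had -0.11 (SE 0.066), and the kinase genes IKBKB and IKBKG had -0.105 (SE 0.134) and 0.13 (SE 0.108). The other sets of both had either sign, from -0.195 to 0.16 for IKBKB and from -0.09 to 0.475 for IKBKG. Receptors and adaptors upstream had 8 of 13 lower and a median of -0.025. Of these CD40 had -0.18 (SE 0.066), though its other set gave 0, TRAF6 -0.09 (SE 0.082), TRADD 0.085 (SE 0.066) and TNFRSF1B, a TNF receptor, 0.04 (SE 0.069). The other TRADD set had the opposite sign, at -0.175, and the others of TNFRSF1B gave 0.135 and 0.21.

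**Figure D4:**
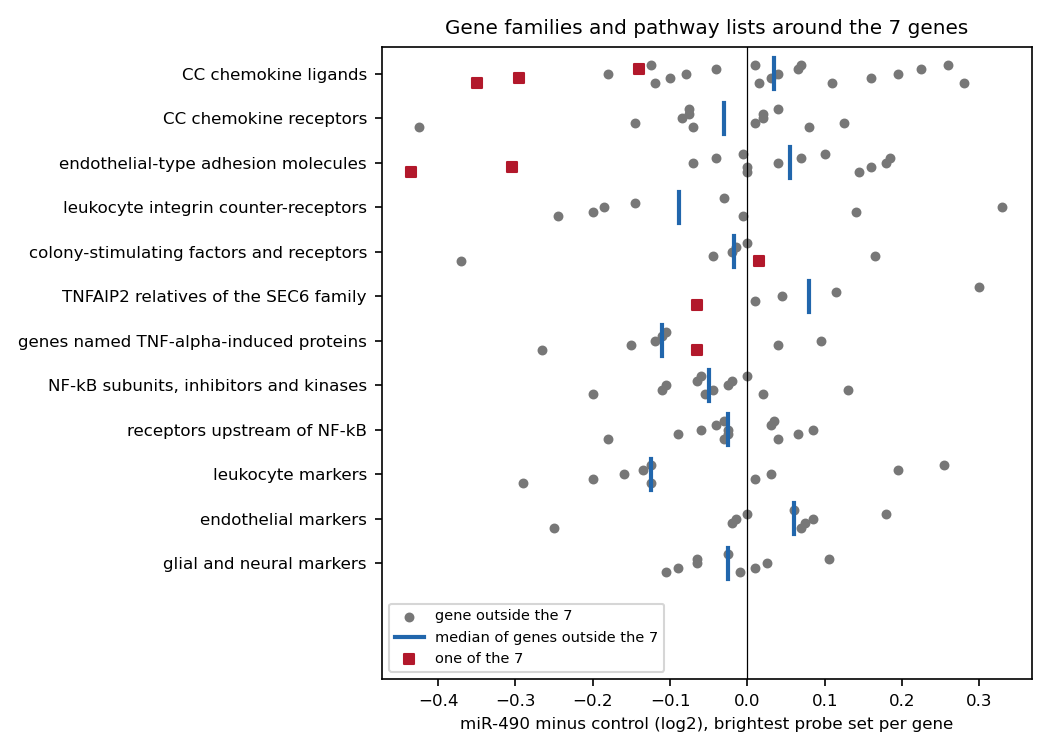
Difference of group means (miR-490 minus control, log2, horizontal axis) of each gene's brightest probe set by list; red squares are the 7 genes, grey points other genes and blue bars the medians of the other genes, with points staggered vertically to keep them apart. CCL5, CCL20, VCAM1 and ICAM1, chosen with their differences known, lie at -0.295 or lower. CCL2, TNFAIP2 and CSF1 lie at -0.14, -0.065 and 0.015. Single other genes run from -0.425 to 0.33, and the medians of the other genes lie between -0.125 and 0.08.

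Markers of other cells were measured because leukocytes and endothelium carry the same genes. Of 10 leukocyte markers 8 lay below the median level, among them PTPRC (mean level 2.54), CD3E (3.38) and CD14 (3.23). TYROBP (5.75) and CORO1A (5.44) lay above it. The list had a median difference of -0.125. Its summed level, as unlogged values, was 174.6 to 177.1 in controls and 171.6 to 174.3 with miR-490. Its part in the members' differences was not tested. Of 9 endothelial markers 3 lay above the median level, KDR at 6.96, TIE1 at 5.39 and VWF at 5.29, while CDH5 was at 3.12. The summed levels of that list overlapped between the groups, at 261 to 287 and 265 to 300.4. RMA values have no 0, so no marker is listed at 0. Of the glial and neural markers VIM was at 13.92, GFAP at 5.71 and SOX10 at 5.33, and the other 6, OLIG2, S100B, AQP4, RBFOX3, SYT1 and NES, were below the median level.

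Genes near a median profile of the members were found by the distance between array values, each centred on its own mean. The profile was the median, array by array, of the 8 member sets above the median level. These included all 3 CSF1 sets and no set of VCAM1 or CCL20, so single members need not follow it. That profile was 0.11 and 0.063 in the control arrays and -0.103 and -0.098 in the miR-490 arrays. Over the 4 arrays and 22728 candidate probe sets, the closest genes were HMOX1 and TUBB2A (distance 0.0205 each), GNA12 (0.0233), LARP6 (0.0244) and TRIM13 (0.0251). HMOX1, for example, read 11.41 and 11.35 in controls and 11.19 and 11.21 with miR-490. The closest genes had differences of -0.17 to -0.19, a size fixed by the match to this profile. The median of the differences of the 8 member sets was -0.103. That is another measure than the profile, so the closest genes are not compared with it. With 4 arrays, many sets come close to any profile.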

How the data were processed

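RNA was labelled from 100 ng of total RNA per array and hybridised to PrimeView 3' expression arrays, per the labels. The deposited log2 values, 1 per probe set, are the authors' RMA output according to the submitters' processing notes; the RMA version is not given in the sources used here. RMA equalises the arrays, so a shift of most transcripts cannot be seen. Batches were not tested, since scan dates were not used here, nor were detection calls. The number of arrays limits the precision.

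Of 49293 probe sets, 44988 had 1 gene symbol, 1832 several and 2473 none; 44961 took current symbols through their Entrez IDs. All probe sets were fitted in R 4.3.3 with limma 3.58.1 (lmFit, eBayes, no trend; 2 residual and 2.73 prior degrees of freedom; 2 against 2 arrays), two-sided, with Benjamini-Hochberg adjustment at 0.05 and no filter; the script was tested on simulated data. The members and lists were chosen with earlier results of these data known. Named were all members and, per list, up to 4 genes above the median level with the largest differences. The 5 genes nearest to the median profile of the brighter member sets were also named. CCR2, CCR6 and the dim markers were named by role, and RELA and REL for their other sets, after their values were seen. Alternatives were another normalisation, centring, an intensity trend, brighter sets only, 1 set or the mean per gene, each array left out, and the replicate number as a block. Same-numbered arrays did not deviate together (r = -0.0844 across probe sets). Figures used matplotlib 3.10.9.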

Additional observations from a re-analysis of the deposited data

How the results depend on the processing

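The count of probe sets past the adjusted threshold was 0 under each of these alternatives. The smallest adjusted p lay between 0.643 (without control array 2) and 0.934 (without miR-490 array 2), and 0 pathway genes passed. The median member difference was -0.0925 as reported, -0.109 with quantile normalisation and -0.102 with centring, and it moved to -0.295 with the brightest set of each gene. Leaving out 1 array gave -0.0425 to -0.193 and 11 to 12 lower sets. With the replicate number as a block the difference stayed at -0.0925 by construction and 0 sets passed (smallest adjusted p 0.891). Of 72 member differences with 1 array left out, 9 changed sign, in 7 sets, of CSF1 (3), TNFAIP2 (2), CCL5 11732275_at and ICAM1 11732999_a_at. Of 76 under the other settings 0 did. Only quantile normalisation and centring could have changed a sign there. Brighter sets only, 1 set or the mean per gene, and the block reuse the same differences, so their signs were fixed. Both VCAM1 sets, CCL20, the other CCL5 sets and ICAM1 11733000_at had lower means under each alternative in which they were fitted. In these sets both miR-490 arrays lay below both controls, so leaving out 1 array could not change the sign. The same holds for TNFAIP2 11758789_x_at and, in the higher direction, for TNFAIP2 11755973_a_at, which also kept their signs. CCL2 and TNFAIP2 11717824_a_at stayed lower too, and ICAM1 11747499_a_at stayed higher. Both VCAM1 sets and CCL20 were not fitted among sets above the median level, and VCAM1 11719675_a_at and CCL5 11732276_x_at not among the brightest sets per gene. Detection calls were not used here, so no limit of detection is given for dim sets.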
